A study of Mus musculus with 15 samples.

Results

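The fatty acid synthesis and desaturation genes described here were Acly, Acaca, Fasn, Elovl6, Scd1, Scd2, Fads1 and Fads2, 8 of the 16593 named genes on the array. They were chosen by symbol, and every probe annotated to a symbol was taken. Each gene had a single probe, and all 8 probes passed the detection filter. Transcript levels were measured on Illumina mouse BeadChips in 4T1 and 4TO7, sister mouse mammary carcinoma lines derived from the same tumour. The 4T1 cells had been stably transduced with lentiviral pLKO encoding either a scrambled hairpin (scramble) or 1 of 2 hairpins directed at Tm4sf1 (hairpin 1 and hairpin 5), a gene for a membrane protein of the L6 family. The 4TO7 cells stably carried the retroviral vector pBabepuro, which was empty (vector) or expressed TM4SF1. There were 5 groups of 3 arrays, called biological replicates in the labels, which gave 15 arrays. Cell line and vector backbone differed together between 4T1 and 4TO7 and cannot be told apart. Whether a transduced line was a pool or a single clone, and from which species the introduced TM4SF1 came, the labels do not say.

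Cells build fatty acids from citrate exported by mitochondria. ATP citrate lyase (Acly) turns it into acetyl-CoA, acetyl-CoA carboxylase (Acaca) makes malonyl-CoA from that, and fatty acid synthase (Fasn) joins the pieces into palmitate. Elovl6 lengthens palmitate to stearate, and the stearoyl-CoA desaturases Scd1 and Scd2 make the monounsaturated palmitoleate and oleate. Fads2 and Fads1 are the desaturases that, acting in turn with an elongase, convert the dietary polyunsaturated fatty acids linoleate and alpha-linolenate into arachidonate and eicosapentaenoate. Tumour cells are known for making much of their own fatty acid, and the transcription factor SREBP-1, the product of Srebf1, drives most of these genes.

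Mean signal per array lay between 222 and 418.6 units and 9436 to 10703 probes per array were detected, that is, had a detection p under 0.01. Of 25697 probes, 11109 were detected on at least 3 arrays and were tested. The log2 difference of the Tm4sf1 probe from scramble was -1.13 with hairpin 1 (adjusted p = 0.000608) and -1.49 with hairpin 5 (adjusted p = 2.07e-05), the direction that the hairpin labels give. With TM4SF1 in 4TO7 it differed by 0.14 from vector (adjusted p = 0.948), and the labels do not say whether the probe reads the introduced sequence. Of the epithelial markers, Krt8 and Krt18 were detected on all 15 arrays, whereas Cdh1 was detected on no array of 4 groups and on 1 array of hairpin 1. Krt18 averaged 11.83 log2 units in scramble and 9.46 in vector. The summed level of the 11 epithelial markers on the platform was 13.10 to 13.18 in scramble and 11.79 to 11.99 in vector, and that of 11 mesenchymal markers was 12.79 to 13.11 in 4T1 and 11.89 to 12.12 in 4TO7. Of the latter, Twist1 averaged 8.20 in scramble and was undetected in 4TO7, Pdgfra averaged 9.80 in scramble and 8.21 in vector, and Vim 12.59 and 11.75. Zeb2, detected on all 15 arrays, went the other way, at 8.34 in scramble and 8.70 in vector. The part of these line differences in the results below was not tested. Adipocytes, in which several of these enzymes are abundant, were checked with 8 marker genes, of which 7 were on the platform and 0 were detected on any array; their summed level was 7.13 to 7.36 log2 units in 4T1 and 7.15 to 7.29 in 4TO7. The 4 endothelial markers were also detected on no array, and of 6 haematopoietic markers on the platform Cd14 alone was detected, at 8.90 in scramble and 9.72 in vector.

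Promoters are shown for Elovl6 and Acly, the members that passed a test in these comparisons. They are RefSeq sequences of the GRCm38.p6 build, running from 250 bases before to 50 bases after the annotated start, on the strand of the gene. Elovl6 lies at chr3:129532136-129532435 on the plus strand and Acly at chr11:100527951-100528250 on the minus strand. Matches to the searched motifs, on either strand, are in capitals.
Elovl6: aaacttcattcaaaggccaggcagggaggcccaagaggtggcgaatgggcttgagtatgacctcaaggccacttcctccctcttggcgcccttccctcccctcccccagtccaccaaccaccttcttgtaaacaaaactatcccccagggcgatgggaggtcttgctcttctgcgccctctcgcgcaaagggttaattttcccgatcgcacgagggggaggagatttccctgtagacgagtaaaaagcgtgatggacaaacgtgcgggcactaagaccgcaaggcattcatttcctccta
Acly: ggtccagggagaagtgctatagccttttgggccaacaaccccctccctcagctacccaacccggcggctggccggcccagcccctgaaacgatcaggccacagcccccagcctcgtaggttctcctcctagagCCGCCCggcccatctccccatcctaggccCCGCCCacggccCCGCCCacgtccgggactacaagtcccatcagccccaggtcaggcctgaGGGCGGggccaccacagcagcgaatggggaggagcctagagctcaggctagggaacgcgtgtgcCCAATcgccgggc
The letters searched were TCACNCCAC for a sterol regulatory element, which 1.24% of 32851 mouse promoters of this length hold, CACGTG for an E-box (7.15%), CCAAT for the CCAAT box (37.4%) and GGGCGG for a GC box (35.7%). The Acly window held 1 CCAAT box and 4 GC boxes, and none of these overlapped. The Elovl6 window held no match to any of the 4 motifs. Promoters were also available for Acaca, Fasn and Fads2, 5 of the 8 genes in all. The sterol regulatory element and the E-box matched none of the 5 windows. At the shares given above, no match in 5 windows is the common outcome. Only these exact letters were searched, so variant sites and sites outside the windows would be missed.

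**Figure D1:**
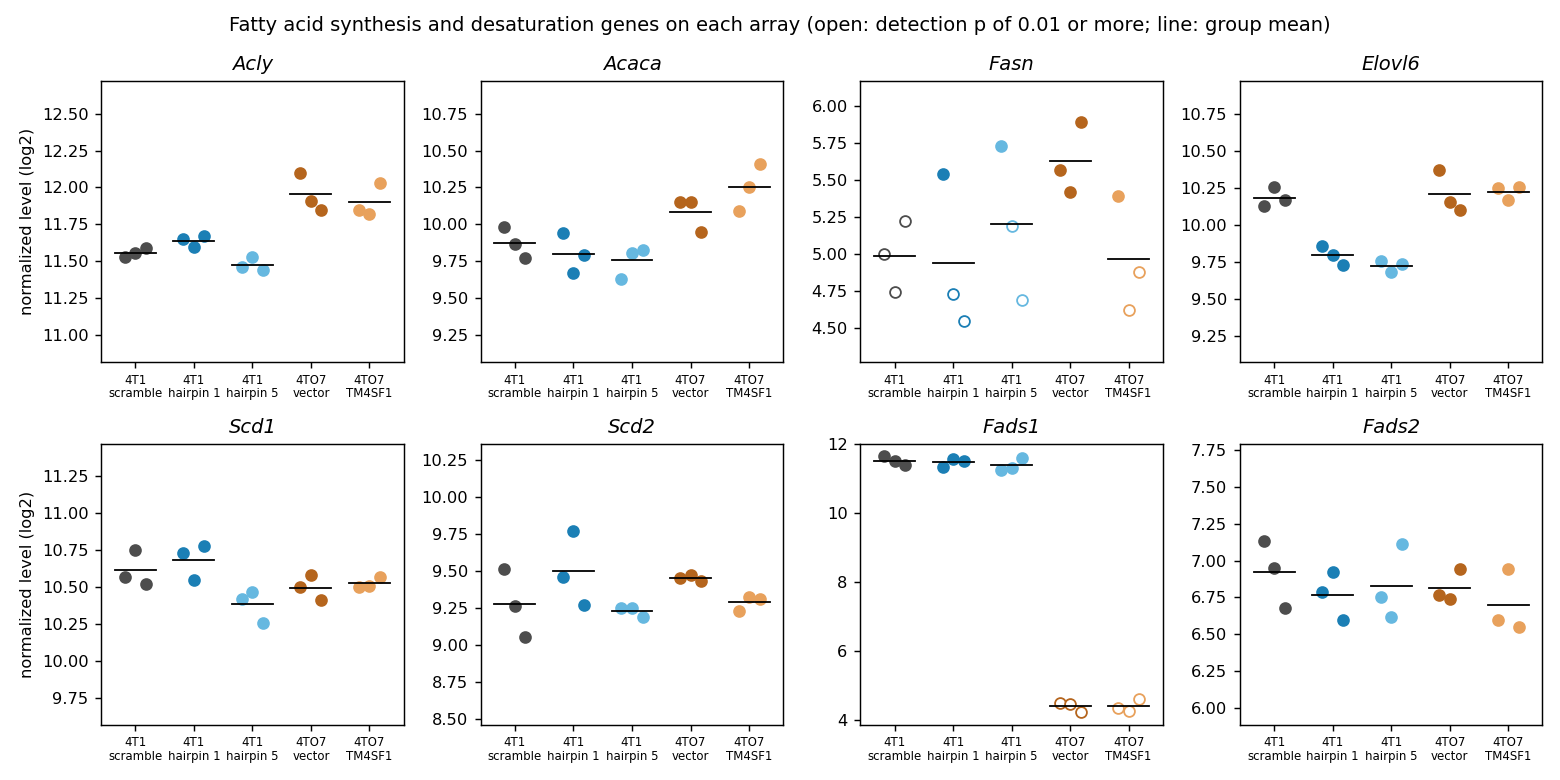
Normalized level (log2) of each gene's probe on each of the 15 arrays, by group, with a line at the group mean and open points where the detection p was 0.01 or more. All panels but that of Fads1 span the same width on the y axis. Elovl6 was lower in both hairpin groups, Acly was higher in both 4TO7 groups, and Fads1 was at background on all 6 arrays of 4TO7.

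With both hairpins against Tm4sf1, Elovl6 fell, and it was the only member that passed the test in either comparison. Levels are given as normalized log2 intensity throughout. In scramble the Elovl6 probe read 10.13, 10.26 and 10.17. With hairpin 1 it read 9.86, 9.80 and 9.73. With hairpin 5 it read 9.76, 9.68 and 9.74. Every hairpin array lay below every scramble array. The level fell by 23.7% with hairpin 1, a log2 difference of -0.39 (standard error 0.0798, 95% interval -0.55 to -0.23, adjusted p = 0.00365). With hairpin 5 it fell by 27.2%, a log2 difference of -0.46 (95% interval -0.62 to -0.29, adjusted p = 0.00085). Both comparisons use the same 3 scramble arrays. In these bulk cultures a lower level in every cell and fewer cells with the transcript cannot be told apart. The hairpins themselves differed by 0.07 on the log2 scale (95% interval -0.10 to 0.23, adjusted p = 0.797). The fall with hairpin 1 missed the threshold when the dimmest array of each group was left out (-0.40, adjusted p = 0.0505), where that with hairpin 5 passed it (-0.48, adjusted p = 0.0216). Both missed it when arrays were scaled to a common median instead of quantile normalized (-0.54 and -0.51, adjusted p of 0.999 and 1).

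The Elovl6 level in 4TO7 lay at the level of scramble 4T1. It read 10.37, 10.16 and 10.10 in vector and 10.25, 10.17 and 10.26 with TM4SF1, so that both groups overlapped scramble and lay above all 6 hairpin arrays. Vector and scramble differed by 0.03 (95% interval -0.14 to 0.19, adjusted p = 0.803) and TM4SF1 and vector by 0.01 (95% interval -0.15 to 0.18, adjusted p = 0.994). In order of group means the level ran from 10.23 (TM4SF1) through 10.21 (vector) and 10.19 (scramble) to 9.80 (hairpin 1) and 9.73 (hairpin 5), and the step between scramble and hairpin 1 was the only step between neighbours in that order that passed the test. Over the 15 arrays the genes whose probe levels ran most like that of Elovl6 were Ltbp3 (r = 0.953), Sema3f (r = 0.926) and Col6a1 (r = 0.923). These arrays share groups and lines, so the coefficients are a description of 15 related points.

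Set against the whole array, 1 of 8 members passed with each hairpin. For all 11109 probes the share called was 4.70% with hairpin 1 and 2.63% with hairpin 5, or 2.37% and 1.70% for falls alone. The median log2 difference of the 8 members was -0.04 with hairpin 1 and -0.11 with hairpin 5, beside -0.003 and 0.006 for all tested probes. Without overlap between the groups stood 2 of 8 members in each comparison, Elovl6 and Acly with hairpin 1 and Elovl6 and Scd1 with hairpin 5, beside 23.5% and 19.5% of all tested probes.

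**Figure D2:**
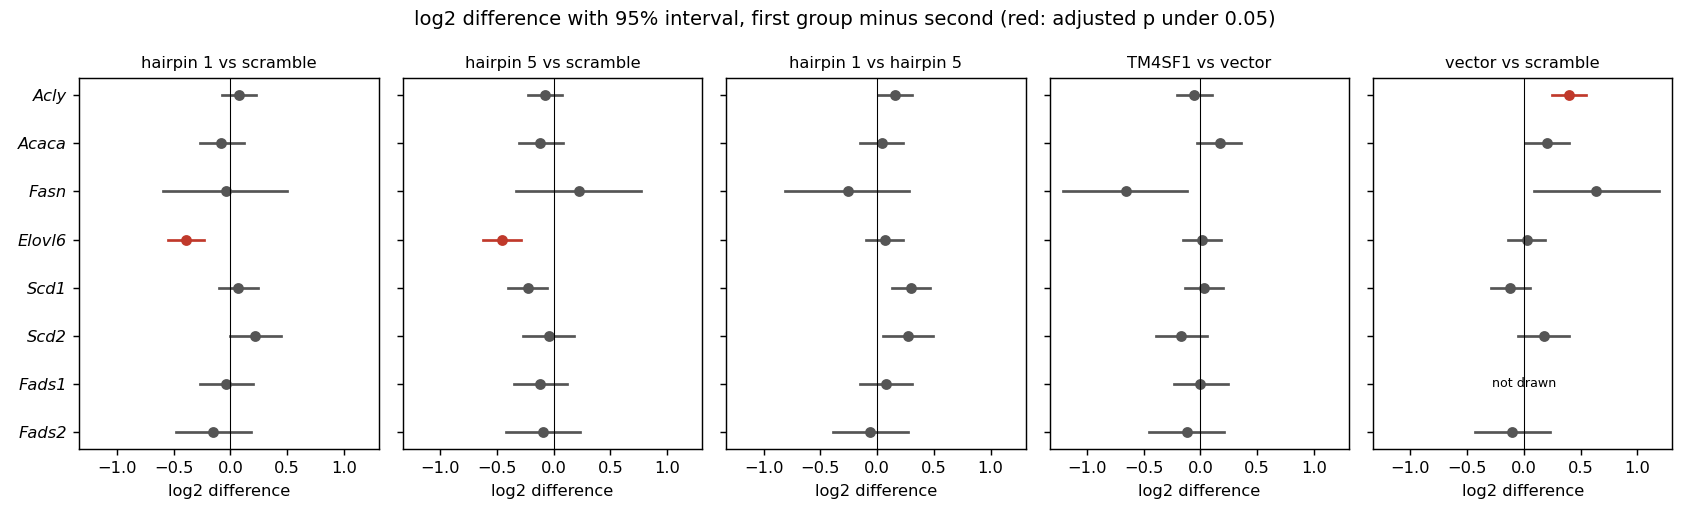
Log2 difference of each gene's probe in the 5 comparisons (first group minus second), with its 95% interval from the limma fit; red marks an adjusted p under 0.05. Elovl6 is red in both hairpin comparisons (-0.39 and -0.46) and Acly between the lines (0.40), and Fads1 is not drawn between the lines, where it was described with no test.

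The genes upstream of Elovl6 gave no call with either hairpin. Acly read 11.53, 11.56 and 11.59 in scramble, 11.65, 11.60 and 11.67 with hairpin 1, and 11.46, 11.53 and 11.44 with hairpin 5. The hairpin 1 arrays lay just above the scramble arrays and the hairpin 5 arrays touched their lower edge. The log2 differences were 0.08 (95% interval -0.07 to 0.23, adjusted p = 0.638) and -0.08 (95% interval -0.23 to 0.07, adjusted p = 0.683). Acaca read 9.98, 9.87 and 9.77 in scramble, 9.94, 9.67 and 9.79 with hairpin 1 and 9.63, 9.81 and 9.83 with hairpin 5. The groups overlapped, and the log2 differences were -0.08 (95% interval -0.27 to 0.12) and -0.12 (95% interval -0.31 to 0.08).

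The Fasn probe was close to background, which limits what it can show. It was detected on 0 of 3 scramble arrays, 1 of 3 arrays of each hairpin, 3 of 3 vector arrays and 1 of 3 TM4SF1 arrays. It read 5.00, 4.74 and 5.22 in scramble, 5.54, 4.73 and 4.55 with hairpin 1 and 5.73, 5.19 and 4.69 with hairpin 5. A single array stood above the others with hairpin 1, the hairpin 5 arrays were spread evenly, and the groups overlapped. The standard error of a difference was 0.266 for Fasn against 0.0798 for Elovl6, and the hairpin differences of -0.04 and 0.22 did not pass the test (adjusted p of 0.959 and 0.78).

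The monounsaturating desaturases Scd1 and Scd2 gave no call with either hairpin or between the hairpins. Scd1 read 10.57, 10.75 and 10.52 in scramble, 10.73, 10.55 and 10.78 with hairpin 1 and 10.42, 10.47 and 10.26 with hairpin 5. All hairpin 5 arrays lay below all others of 4T1. Hairpin 5 differed from scramble by -0.23 (95% interval -0.40 to -0.06, adjusted p = 0.163) and hairpin 1 by 0.07 (95% interval -0.10 to 0.24, adjusted p = 0.728). Between the hairpins the Scd1 difference was 0.30 (95% interval 0.13 to 0.47, adjusted p = 0.0654). It passed the threshold with cyclic loess normalization (0.32, adjusted p = 0.0495) and without hairpin 1 replicate 2 (0.37, adjusted p = 0.0494).

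Scd2 read 9.51, 9.26 and 9.05 in scramble, 9.46, 9.77 and 9.27 with hairpin 1 and 9.25, 9.25 and 9.19 with hairpin 5. The scramble arrays spanned all hairpin arrays except hairpin 1 replicate 2 at 9.77. The log2 difference was 0.22 with hairpin 1 (95% interval 0.00 to 0.45, adjusted p = 0.289), -0.04 with hairpin 5 (95% interval -0.27 to 0.18, adjusted p = 0.907) and 0.27 between the hairpins (95% interval 0.05 to 0.49, adjusted p = 0.271). The value for hairpin 1 rested on single arrays: it was 0.09 without hairpin 1 replicate 2, 0.11 without scramble replicate 3 and 0.34 without scramble replicate 1 or hairpin 1 replicate 3, and -0.02 when the dimmest arrays were left out. Between the hairpins it was 0.13 without hairpin 1 replicate 2 and 0.14 without the dimmest arrays. Of the 8 members, 0 were called between the hairpins, 3 (Acly, Scd1 and Scd2) had an unadjusted limma p under 0.05 and the same 3 did not overlap; of all probes 1.45% were called, 12.5% had an unadjusted p under 0.05 and 16.3% did not overlap.

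The polyunsaturating desaturases gave no call within 4T1. Fads1 read 11.63, 11.49 and 11.37 in scramble, 11.32, 11.56 and 11.50 with hairpin 1 and 11.25, 11.31 and 11.58 with hairpin 5, and the groups overlapped. Its log2 differences were -0.04 with hairpin 1 (95% interval -0.27 to 0.20) and -0.12 with hairpin 5 (95% interval -0.35 to 0.12). Fads2 read 7.13, 6.95 and 6.68 in scramble, 6.79, 6.92 and 6.60 with hairpin 1 and 6.75, 6.62 and 7.11 with hairpin 5. Its differences were -0.15 (95% interval -0.48 to 0.18) and -0.09 (95% interval -0.42 to 0.23).

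Between the lines, the Fads1 probe was bright in 4T1 and at background in 4TO7. The gene set was drawn up with this loss named, so the Fads1 values are a description and carry no test. They rest on a single probe. No probe sequences were given, so its position within the transcript could not be checked. The probe was detected on 9 of 9 arrays of 4T1, at 11.25 to 11.63 log2 units, which were 1767 to 4416 units of raw signal. In vector it read 4.49, 4.45 and 4.23 and in TM4SF1 4.34, 4.25 and 4.60. Raw signal on these 6 arrays was 82.7 to 115.8 units, and the detection p ran from 0.157 to 0.99, so the probe was detected on 0 of 6. The smallest gap between the lines was thus that between 11.25 and 4.60. The measured log2 difference of vector from scramble was -7.11. As the level in 4TO7 has only an upper bound, Fads1 was at least 74.4-fold lower in vector on this scale. The bound was set by the lowest signal among detected probes on each vector array. It holds for the main background correction and offset only. The measured difference was -5.73 with an offset of 50 and -4.72 without background correction. The introduced TM4SF1 left Fads1 at background, and no fold is given between groups that are both below detection.

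Fads1 lies in a cluster with Fads2 and Fads3, and the neighbours that passed the detection filter were detected in 4TO7 on every array. Of the 10 protein-coding genes on either side in the RefSeq order, 14 had a probe and 8 had a probe that was tested, 10 probes in all. The other 6 genes with a probe were detected on 0 or 1 arrays of each line. All 10 tested probes were detected on 9 of 9 arrays of 4T1 and 6 of 6 of 4TO7, and their log2 differences between vector and scramble lay between -0.24 and 0.80. Fads2, the next gene on one side, read 6.77, 6.74 and 6.94 in vector and 6.60, 6.94 and 6.55 with TM4SF1, all but the lowest inside the 4T1 range of 6.60 to 7.13. It differed by -0.10 between vector and scramble (95% interval -0.43 to 0.23, adjusted p = 0.635). Fads3, a desaturase homologue next to Fads2, rose by 0.80, from a mean of 6.02 to 6.82 (adjusted p = 0.000148). Fen1, the flap endonuclease of DNA replication and the next gene on the other side, rose by 0.48, from 9.50 to 9.98 (adjusted p = 0.000144). The tested probes of Incenp, Fth1, Sdhaf2, Cpsf7 and Tmem216 did not pass the test.

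**Figure D3:**
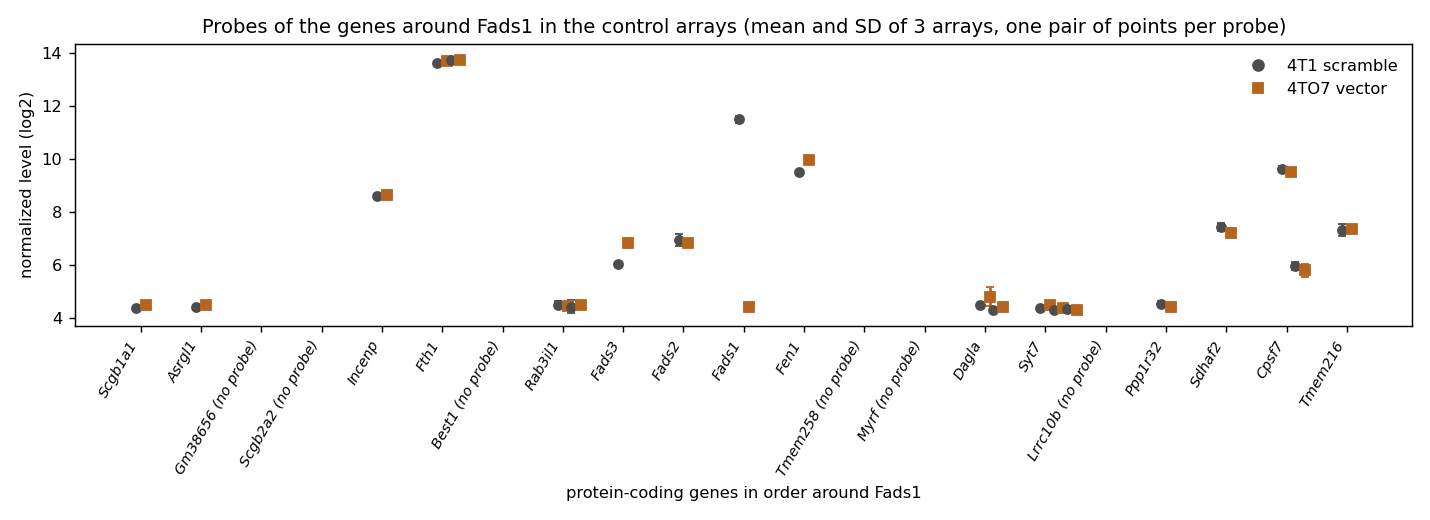
Normalized level (log2, mean and SD of 3 arrays) of the probes of Fads1 and its neighbouring protein-coding genes in scramble 4T1 (circles) and vector 4TO7 (squares), in gene order, with a pair of points for each probe. Fads1 drops from 11.50 to 4.39 while Fads2 and Fen1 on either side read 6.82 and 9.98 in vector.

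Acly rose between the lines and was the only 1 of 7 tested members to pass. It read 12.10, 11.91 and 11.85 in vector and 11.85, 11.82 and 12.03 with TM4SF1, so all 6 arrays of 4TO7 lay above all 9 of 4T1, whose highest was 11.67. Vector exceeded scramble by 31.6%, a log2 difference of 0.40 (standard error 0.0736, 95% interval 0.25 to 0.55, adjusted p = 7.15e-05). A difference of this kind was common: 45.0% of all probes were called between the control arrays of the lines, 23.0% of all probes were called as higher in 4TO7, and 29.9% of all probes did not overlap between the 6 arrays of 4TO7 and the 9 of 4T1. The median log2 difference of the 8 members was 0.10, beside 0.024 for all tested probes. That median includes Fads1, whose loss was named when the set was drawn up, so it is a description only. The Acly difference missed the threshold with median scaling (0.42, adjusted p = 0.281). The genes running most like Acly over the 15 arrays were Eif2ak3, Pi4k2b and Iqgap1. The genes running most like Fads1 were Tmem185b, Ckb and Krt18. For both Acly and Fads1 the lines did not overlap, so no coefficient is given.

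Acaca, the next enzyme, gave no call between the lines. It read 10.15, 10.15 and 9.95 in vector and 10.09, 10.25 and 10.41 with TM4SF1, against 9.63 to 9.98 in 4T1. Vector and scramble differed by 0.20 (95% interval 0.01 to 0.40, adjusted p = 0.0816), and with 1 array left out it ran from 0.15 (without scramble replicate 3, adjusted p = 0.266) to 0.27 (without vector replicate 3, adjusted p = 0.0377, the only one of 21 alternatives in which it passed). Over the 15 arrays its closest runs were those of Cops4 (r = 0.943), Fam229b (r = 0.933) and Scamp4 (r = 0.922).

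Fasn read 5.57, 5.42 and 5.89 in vector, the only group in which it was detected on all 3 arrays, and 5.39, 4.62 and 4.88 with TM4SF1. Vector and scramble did not overlap, as for Acly and Fads1 of the 8 members and for 54.6% of all probes. The log2 difference of 0.64 (95% interval 0.09 to 1.19) missed the threshold (adjusted p = 0.0513). Scramble was below detection, so the size of the difference is not a measured fold. Vector was at least 1.31-fold higher. The p-values here were taken against scramble values below detection, so they do not apply to that bound. The difference shrank to 0.19 without background correction. It passed in 11 of 21 alternative settings, missed the threshold without a detection filter (adjusted p = 0.134) and in the 9 others, and the adjusted p ranged from 0.00843 to 0.186 over all 21.

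Scd1 read 10.50, 10.58 and 10.41 in vector and 10.50, 10.51 and 10.57 with TM4SF1, inside its range in 4T1. Vector and scramble differed by -0.12 (95% interval -0.29 to 0.05, adjusted p = 0.255). Scd2 read 9.45, 9.47 and 9.43 in vector and 9.23, 9.32 and 9.31 with TM4SF1, also inside its 4T1 range. Vector and scramble differed by 0.18 (95% interval -0.05 to 0.40, adjusted p = 0.193), and with 1 array left out that difference ran from 0.06 (without scramble replicate 3, adjusted p = 0.688) to 0.30 (without scramble replicate 1, adjusted p = 0.0398).

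TM4SF1 in 4TO7 left all 8 members without a call, where 2 of all 11109 probes, 0.0180%, were called by limma and 754, 6.79%, had an unadjusted p under 0.05. Of the members, Fads1 was below detection on all 6 arrays compared, so its lack of a call carries no information. Only Fasn had an unadjusted limma p under 0.05 (0.0192). It was lower with TM4SF1 by 0.66 on the log2 scale (95% interval -1.21 to -0.12, adjusted p = 0.629) and did not overlap vector, with the probe detected on 1 of 3 TM4SF1 arrays. Scd2 did not overlap either (-0.17, 95% interval -0.39 to 0.06, adjusted p = 0.82), against 12.3% of all probes without overlap. Acaca differed by 0.17 (95% interval -0.03 to 0.36, adjusted p = 0.778), Acly by -0.06 (95% interval -0.21 to 0.10) and Fads2 by -0.12 (95% interval -0.45 to 0.21). For Elovl6 the interval was -0.15 to 0.18. The Tm4sf1 probe differed by 0.14 in this comparison (adjusted p = 0.948), so that probe showed no rise that passed the test. As the labels do not say whether that probe reads the introduced sequence, it cannot show how much TM4SF1 was added. How this comparison relates to the fall with the hairpins was not tested.

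**Figure D4:**
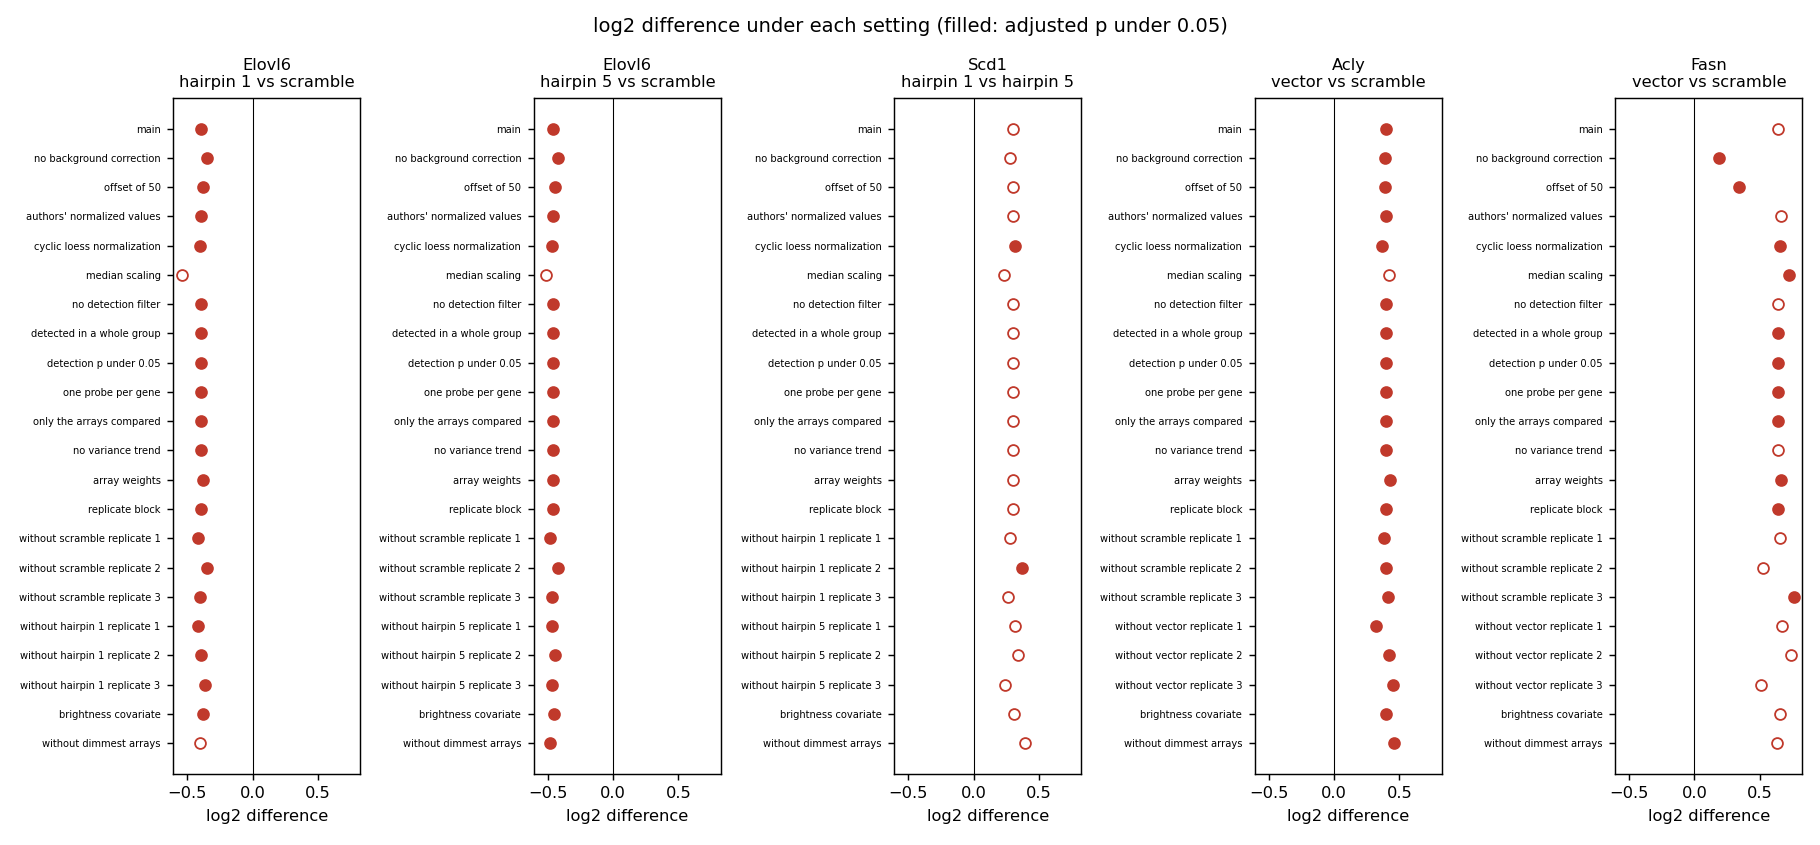
Log2 difference of 5 member results under each processing setting, filled where the adjusted p was under 0.05. The direction held in every setting drawn; Elovl6 and Acly lost the call with median scaling, Elovl6 with hairpin 1 also lost it without the dimmest arrays, and Fasn sat on both sides of the threshold.

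Around these 8 genes, 6 lists of other lipid genes were read by their brightest probe. Between the lines, 46.1% of their 76 tested genes were called, 16 higher and 19 lower in vector. The share for all probes was 45.0%. Of 12 tested regulators of lipogenic transcription, 2 rose and 5 fell. Srebf1 fell from 6.54 in scramble to 5.67 in vector (-0.86, adjusted p = 0.000507). Mid1ip1, which promotes assembly of acetyl-CoA carboxylase, fell by 0.76 (adjusted p = 1.71e-06). Ppargc1b, a coactivator of SREBP, was detected on 3 scramble arrays and on 0 of 3 vector arrays and was at least 1.83-fold lower. Its measured difference was -1.41 (adjusted p = 1.03e-06 in limma). That p-value was taken against vector values below detection, so it does not apply to the bound, and -1.41 is not a measured fold. The E-box binding factors Usf1 (0.51, adjusted p = 0.00654) and Usf2 (0.71, adjusted p = 0.00487, and 0.41 by its other probe) rose. Usf2 was detected on 1 of 3 scramble arrays, and its difference was as low as 0.24 among the 21 alternatives.

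Of 9 genes supplying acetyl-CoA, NADPH or cofactors, Acss2, which makes acetyl-CoA from acetate, rose by 0.57 (adjusted p = 5.79e-06) and Idh1, a cytosolic source of NADPH, fell by 0.82 (adjusted p = 3.73e-10). Of 12 other elongation and desaturation genes, 3 rose and 4 fell. Elovl5, the elongase that works between Fads2 and Fads1, rose by 0.34 (adjusted p = 0.00208), and Fads3 rose as given above. Hacd1, a dehydratase of the elongation cycle, fell by 1.14 (adjusted p = 2.1e-12, and -1.06 by its other probe), and Hacd4 fell by 0.53 (adjusted p = 0.0181). Of the cytochrome b5 and reductase genes on this list, Cyb5b fell by 0.21 (adjusted p = 0.0102) and Cyb5a was not called (0.10, adjusted p = 0.539). Cyb5r3 rose by 0.22 (adjusted p = 0.0256), though its other probes read -0.08 and 0.47. The call was lost for Cyb5b without scramble replicate 2 (-0.18, adjusted p = 0.0527), for Cyb5r3 without scramble replicate 1 or 3 or vector replicate 2 (0.16 to 0.23, highest adjusted p = 0.146), and for Hacd4 without scramble replicate 2 or vector replicate 1 or 3 (-0.46 to -0.44, highest adjusted p = 0.0861).

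Of 17 genes of uptake, activation and esterification, 3 rose and 4 fell. Dgat2, which makes triglyceride, rose by 1.31 (adjusted p = 2.17e-07), and Agpat3 and Lpin2, which act earlier in glycerolipid synthesis, rose by 0.77 and 0.70. The lipid droplet coat gene Plin2 fell by 1.14 (adjusted p = 3.13e-06), Slc27a3 of the fatty acid transporter family fell by 0.94 and Agpat2, an acyltransferase of glycerolipid synthesis, fell by 0.92. Of 10 genes of lipolysis and oxidation, the triglyceride lipase gene Pnpla2 rose by 0.26 (adjusted p = 0.0195; 0.21 and 0.18 with no call without scramble or vector replicate 3), while 3 fell: the acyl-CoA dehydrogenase genes Acadl (-0.84) and Acadvl (-0.51) and the acylcarnitine carrier gene Slc25a20 (-0.39). Of 16 sterol genes, 6 rose and 2 fell. The synthesis enzyme genes Mvd and Lss rose by 0.81 and 0.71 and Tm7sf2, a sterol reductase gene, was at least 1.52-fold higher, while Ebp fell by 0.88 and Hmgcs1 fell by 0.56. The list medians lay between -0.22 (regulators) and 0.22 (sterol genes), and 45.0% of all probes were called in this comparison.

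**Figure D5:**
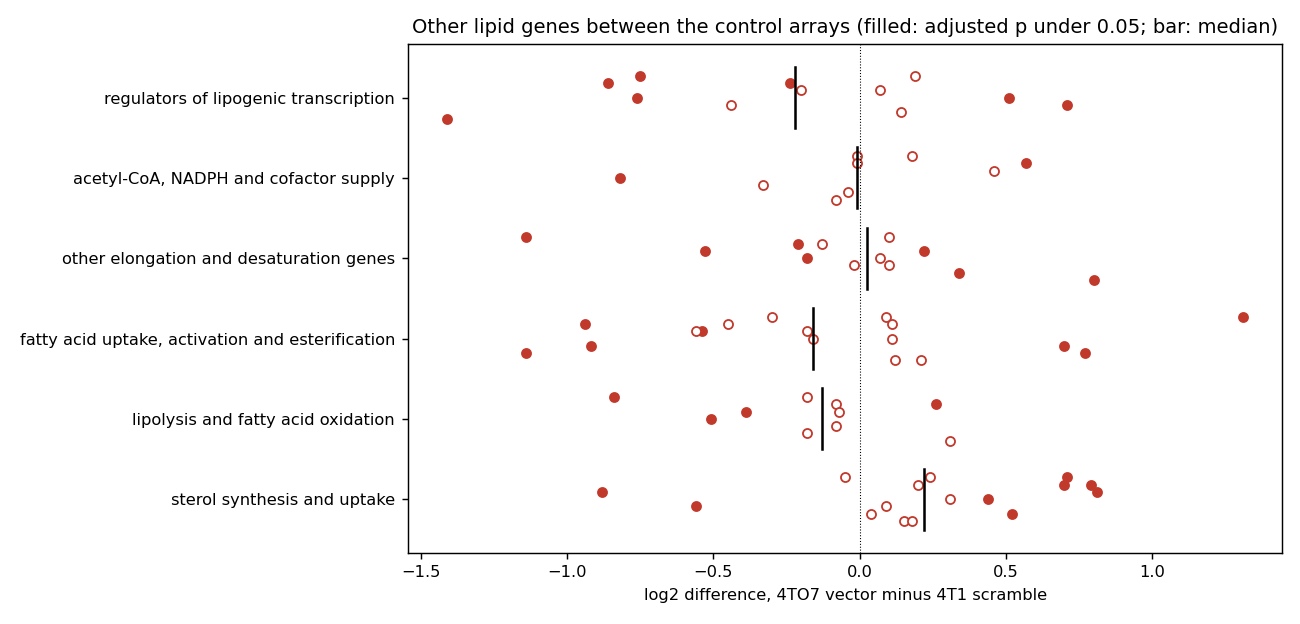
Log2 difference between vector 4TO7 and scramble 4T1 of each tested gene in the 6 lists of other lipid genes, with filled points at an adjusted p under 0.05 and a bar at the list median. Called genes lie on both sides of 0 in every list; Ppargc1b, undetected in vector, and Tm7sf2, undetected in scramble, are drawn at their measured values of -1.41 and 0.79.

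With hairpin 1, 4 of the 76 tested genes of the 6 lists were called, 5.26% beside 4.70% of all probes. With hairpin 5 it was 1 of 76 (1.32% beside 2.63%), and between the hairpins 1 of 76 (1.32% beside 1.45%). With hairpin 1, Insig2, which holds back SREBP processing, rose by 0.37 (adjusted p = 0.0114, and 0.35 by its other probe). The fatty acid transporter gene Slc27a1 rose by 0.54 (adjusted p = 0.0214) and Pnpla2 rose by 0.34 (adjusted p = 0.0255). Hmgcs1, which makes HMG-CoA for the mevalonate pathway, fell by 0.31 (adjusted p = 0.0175). With hairpin 5, Msmo1, a methylsterol oxidase, was the only gene of the 6 lists that was called (-0.42, adjusted p = 0.0425), and it was also the only one between the hairpins (0.52, adjusted p = 0.0137). Side by side, hairpin 5 gave 0.22 for Insig2, 0.29 for Slc27a1, 0.24 for Pnpla2 and -0.13 for Hmgcs1 on the log2 scale, none of them called. All these hairpin calls were lost without some single array: Insig2 without scramble replicate 2 or hairpin 1 replicate 3 (0.31 and 0.35), Slc27a1 without scramble replicate 1 or 2 or hairpin 1 replicate 2 (0.47 to 0.53), Pnpla2 without scramble replicate 2 or 3 or hairpin 1 replicate 2 or 3 (0.29 to 0.34) and Hmgcs1 without scramble replicate 1 or 2 or hairpin 1 replicate 2 (-0.30 to -0.27). Msmo1 lost its hairpin 5 call without any of the 3 scramble arrays or hairpin 5 replicate 2 or 3 (-0.45 to -0.33), and its call between the hairpins without hairpin 1 replicate 2 or hairpin 5 replicate 2 or 3 (0.43 to 0.49). With TM4SF1 in 4TO7, 0 of the 76 genes were called by limma, and 8 of 76 (10.5%) had an unadjusted p under 0.05, beside 6.79% of all probes.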

How the data were processed

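RNA was extracted with Trizol and hybridised as biotinylated cRNA, per the labels' protocols. The main deposited table gives, per the file headers, a linear mean bead intensity for each probe that had been neither background-subtracted nor normalized, its standard error, the bead number and a detection p-value. GenomeStudio is named in the submitters' processing notes, with no version. The second deposited table gives intensity normalized by the authors in a way the sources do not state; its values (array medians 8.34 to 8.45, minimum -18.46) are on a linear, background-subtracted scale. 0 columns belonged to no sample.

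The unnormalized values went through normexp correction in limma, using negative controls inferred from detection p-values, then an offset of 16, quantile normalization and log2. Tested probes had a detection p under 0.01 on 3 or more arrays. In limma 3.58.1 (R 4.3.3) all 15 arrays entered a single model of group means with a mean-variance trend (10 residual and 16.3 prior degrees of freedom), and the median standard error of a log2 difference was 0.141. Its two-sided p-values were adjusted by the Benjamini-Hochberg method across every tested probe of a comparison and called under 0.05. Precision is limited by the number of arrays: permuting 3 against 3 exactly gives p = 0.1 at best, so it was not used. The labels do not state that replicates came from separate cultures, so p-values measure the spread between these arrays, which may be technical. The headers name neither slide nor scan. The code was tested on simulated data.

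Where a probe was undetected throughout a group, a fold is written as "at least": the other group's mean was set against the mean, over the undetected arrays, of the probe's own value or the lowest detected signal, whichever was higher. Such a bound holds for the main background correction and offset only. Symbols are those of the platform annotation (23978 probes with 1 symbol, 0 with several, 1719 with none); 23962 matched RefSeq gene IDs of GRCm38.p6, with 0 symbols changed. The bead standard error of the 8 probes, 2.79% to 11.3% of signal, covers the spread within an array.

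The 8 genes and all lists were chosen with earlier results of these data known. All 8 are described. In each lipid list and comparison up to 3 called genes each way, those with the largest change, are named, and for each member the 3 genes most correlated with it were found. The alternatives changed background correction, offset (50), normalization (cyclic loess, median scaling or the authors' table), detection filter, probes per gene, arrays in the fit, variance trend and array weights, added the replicate number as a block, or left out single arrays. A brightness covariate and the omission of every group's dimmest array were added after seeing the data.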

Additional observations from a re-analysis of the deposited data

Results flagged for a closer look

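Acly lay on opposite sides of scramble with the hairpins. Every array of hairpin 1 (11.65, 11.60 and 11.67 log2 units) lay above the scramble mean of 11.56, and every array of hairpin 5 (11.46, 11.53 and 11.44) lay below it. The difference itself was tested and did not pass: hairpin 1 exceeded hairpin 5 by 0.16 on the log2 scale in limma's fit (95% interval 0.01 to 0.31, unadjusted p = 0.037, adjusted p = 0.357). With median scaling both hairpins lay below scramble (-0.05 and -0.13).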

How the results depend on the processing

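Each result was recomputed under 21 alternatives, and no called result changed sign. Of 40 member results, 18 had the other sign in at least 1 alternative, and 0 of these 18 were called in any. Of the 8 genes, 0 were called with hairpin 1 under median scaling and when every group lost its dimmest array, and 0 with hairpin 5 under median scaling; the Elovl6 calls held in 19 of 21 and 20 of 21 alternatives. With 1 array left out, the adjusted p of Elovl6 ran from 0.00834 to 0.0292 with hairpin 1 and from 0.0025 to 0.011 with hairpin 5. Between the hairpins 1 gene, Scd1, was called with cyclic loess, and 0 to 1 with 1 array left out. Between the lines 2 genes, Acly and Fasn, were called with no background correction, an offset of 50, cyclic loess, detection on every array of a group, a detection p under 0.05 on 3 arrays, the brightest probe per gene, only the compared arrays, array weights and the replicate block, and 1 to 2 with 1 array left out; with no detection filter Fasn was not called. The measured Fads1 difference ran from -7.37 with the authors' normalized values, through -7.28 with cyclic loess and -5.73 with an offset of 50, to -4.72 without background correction. Of 34 named calls in the lipid lists, 16 held in every alternative, 8 were lost with median scaling only and 10 also in another. Median scaling moved the median of all tested probes to -0.12 with hairpin 1, -0.05 with hairpin 5, -0.07 between the hairpins, -0.17 with TM4SF1 and 0.10 between the lines, and left 18 probes called with hairpin 1 (7 higher), 18 with hairpin 5 (6 higher), 3 between the hairpins (0 higher), 0 with TM4SF1 and 1919 between the lines, beside 522 (259 higher), 292 (103), 161 (107), 2 and 4998; the cause was not tested. Array weights called 773, 385, 179, 3 and 5672, the omission of the dimmest arrays 173, 120, 45, 2 and 4396, and leaving out single arrays 258 to 375, 151 to 301, 75 to 159, 1 to 3 and 4451 to 4524. The remaining large moves of these counts came without a variance trend (344, 205 and 85 in the 4T1 comparisons), with no detection filter (336 and 190 with the hairpins) and with only the compared arrays (93 between the hairpins), and TM4SF1 gave 0 calls without the trend or with only the compared arrays. The replicate numbers did not pair the arrays (correlations of same-numbered deviations from -0.143 to 0.09), and the replicate block gave 443, 259, 146, 2 and 4941 calls. A slide block was not run, since the headers name no slide. Signal near background limits Fasn in most groups and Fads1 in 4TO7.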

Other observations

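Over the 15 arrays, Scd1 ran most like Ginm1 (r = 0.862), Scd2 most like Fosb (r = 0.854), Fads2 most like Mbtps1 (r = 0.79) and Fasn most like Atg2a (r = 0.776). Mbtps1 encodes the protease that makes the first cleavage of SREBP. Its coefficient is that of its brightest probe. That probe differed by -0.20 between vector and scramble, where its other tested probes read -0.01 and 0.06. A link with Fads2 was not tested. These coefficients are descriptions over arrays that share groups and lines, and the highest of many probes were taken.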
